A study of Zea mays with 6 samples.

Results

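Brassinosteroids are steroid hormones of plants that promote cell elongation, and maize plants that cannot make or perceive them are dwarfs. The hormone is made from sterols in a chain of reductions and oxidations, and it is perceived at the cell surface by a receptor kinase, from which a phosphorylation cascade leads to transcription factors in the nucleus. In Arabidopsis several synthesis genes are repressed when the hormone is abundant, so their transcripts respond to the hormone itself. Gibberellins form another growth hormone pathway, and loss of either dwarfs maize.

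The 4 genes described here are 3 of brassinosteroid synthesis, na2 (Zm00001d014887), na1 (Zm00001d042843) and brd1 (Zm00001d033180), and 1 receptor gene, bri1 (Zm00001d011721). They were chosen by identifier, and all 4 were found among the 44320 genes of the deposited table. The names come from the list that chose them. Neither the deposited table nor the RefSeq table of maize genes pairs any of these identifiers with a name, so the pairing was not checked, and the roles given below rest on it.

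Leaf messenger RNA of maize (Zea mays) was sequenced in 6 libraries. The 3 KO1 libraries came from plants labelled as a knockout of ZmGA20ox3, a gibberellin 20-oxidase gene that acts in gibberellin synthesis, and the 3 WT libraries from wild-type plants. KN5585 is given as the cultivar of all 6 samples, with normal growth as the treatment, whereas another spelling of the line, KN5855, stands in the growth protocol. Sampling was at the V8 vegetative stage, and the protocol speaks of biological replicates. Only 1 knockout label, KO1, is among the 6 libraries, and leaf position is not given. For the brassinosteroid genes, the comparison asks whether transcripts of that hormone route differ between leaves of the edited plants and leaves of the wild type.

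Levels are in TPM, a transcript abundance that divides each gene's reads by its length and scales each library to the same total, so levels of different genes can be set side by side. The sequencing depth is unknown and no counting error can be given. The transcript of ZmGA20ox3 was not analysed here, which leaves the knockout without a check, and neither were marker genes of leaf cell types. Genes at 1 TPM or more numbered 20697 to 21115 in KO1 libraries and 19282 to 20537 in WT libraries. In whole leaves, fewer cells that make a transcript and less of it per cell cannot be told apart.

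None of the 4 genes passed the threshold between KO1 and WT, a Benjamini-Hochberg adjusted p under 0.05 in limma over the 20990 genes with at least 1 TPM in at least 3 libraries. That count of 0 of 4 stands beside 15.7% of all tested genes, with 9.87% higher and 5.86% lower in KO1. All 4 genes were tested. Among all tested genes the share fell to 7.06% without KO1 replicate 1, 8.84% without KO1 replicate 2, 6.26% without WT replicate 1 and 3.71% without WT replicate 3, with none of the 4 genes past the threshold in these fits. Without KO1 replicate 3 na2 passed, beside 10.7% of all tested genes. At an unadjusted p under 0.05 there was 1 of the 4, na2, beside 34.3% of all tested genes. The 3 synthesis genes did not lie on the same side: na2 and na1 had higher means in KO1 and brd1 had a lower one, while bri1 had nearly the same mean in both groups. DESeq2 and edgeR were not run, since the table holds no counts.

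The first of the synthesis genes, na2, encodes a sterol reductase related to DWARF1 of Arabidopsis, which works early in the route, where sterols for membranes and for the hormone are made. In replicates 1 to 3, its transcript stood at 16.6, 29.5 and 10.4 TPM in KO1, against 3.73, 7.76 and 6.92 TPM in WT. The groups did not overlap, with KO1 replicate 2 far above the other KO1 libraries and WT replicate 1 the lowest of all. A separation of this kind held for 1 of the 4 genes and for 40.5% of all tested genes, with KO1 above WT in 22.9%.

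The mean level of na2 was 18.8 ± 9.73 TPM in KO1 and 6.14 ± 2.13 TPM in WT (SD, n = 3 each), a ratio of 3.06. Values were compared as log2(TPM + 1), where the added 1 shrinks differences between low levels. On that scale the difference was 1.40 with a standard error of 0.41 and a 95% interval from 0.42 to 2.38 (limma adjusted p = 0.0631, unadjusted p = 0.012). The interval of the single gene lay above 0, but the adjusted p missed the threshold. An exact two-sided permutation test of the TPM means gave p = 0.1, the smallest value that 3 against 3 libraries allow. Of all tested genes, 8.03% had a larger difference in the same direction.

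Libraries of the same genotype differed more for na2 than for most genes of its level. The SD of its log2(TPM + 1) values was 0.71 in KO1 and 0.48 in WT. Among the 4815 tested genes with a mean within 1.5 times that of na2, 90.1% had a smaller SD in KO1 and 81.5% a smaller one in WT. The standard error of its difference, 0.41, stood against a median of 0.22 in that band. Without KO1 replicate 3, the lowest KO1 library for na2, the difference was 1.75 and passed the threshold (limma adjusted p = 0.0477). That fit called 10.7% of all tested genes. With libraries weighted by how closely they follow the fit, it was 1.02 and passed as well (limma adjusted p = 0.0393), in a setting that called 32.6% of all tested genes.

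The second synthesis gene, na1, encodes a steroid reductase related to DET2 of Arabidopsis, which acts on the steroid intermediates between the sterols and the active hormone. Its transcript was scarce, at 1.76, 2.99 and 1.25 TPM in the KO1 libraries and 0.57, 1.05 and 1.33 TPM in the WT libraries, in replicate order. The groups overlapped, since WT replicate 3 lay above KO1 replicate 3. Of the WT libraries 2 reached 1 TPM, and of the KO1 libraries 3.

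The mean level of na1 was 2 ± 0.894 TPM in KO1 and 0.983 ± 0.384 TPM in WT (SD, n = 3 each), a ratio of 2.03. The difference on the log2(TPM + 1) scale was 0.57 with a standard error of 0.29 and a 95% interval from -0.13 to 1.28 (limma adjusted p = 0.218; exact permutation p = 0.2). Without KO1 replicate 2 alone the difference was 0.35. The difference did not pass the threshold, and the interval of all 6 libraries includes both no difference and a change larger than 2-fold on that scale.

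The last of the synthesis genes, brd1, encodes a cytochrome P450 of the brassinosteroid C-6 oxidase type, which makes late intermediates and the active hormone castasterone. It was the only one of the 4 genes with a lower mean in KO1. In the same order, its transcript stood at 1.09, 1 and 2.23 TPM in KO1 and at 3.19, 1.82 and 3.45 TPM in WT. KO1 replicate 3 lay above WT replicate 2, so the groups overlapped, and the other KO1 libraries lay below every WT library.

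The mean level of brd1 was 1.44 ± 0.686 TPM in KO1 and 2.82 ± 0.876 TPM in WT (SD, n = 3 each), which is 0.511 times the WT level. The difference on the log2(TPM + 1) scale was -0.65 with a standard error of 0.29 and a 95% interval from -1.36 to 0.05 (limma adjusted p = 0.171; exact permutation p = 0.2). Of all tested genes, 13.0% had a difference further below. The adjusted p came nearest to the threshold with weighted libraries, at 0.0571 (limma) for a difference of -0.75.

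The receptor gene bri1 encodes a receptor kinase with leucine-rich repeats that binds the hormone outside the cell. Its level was 1.99, 2.44 and 2.06 TPM in KO1 and 1.46, 2 and 2.2 TPM in WT. The libraries of both groups were interleaved, and WT replicate 1 was the lowest of the 6.

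The mean level of bri1 was 2.16 ± 0.242 TPM in KO1 and 1.89 ± 0.383 TPM in WT (SD, n = 3 each), a ratio of 1.15. The difference was 0.14 on the log2(TPM + 1) scale with a standard error of 0.21 and a 95% interval from -0.35 to 0.63 (limma adjusted p = 0.669; exact permutation p = 0.5). Single libraries moved this small difference: leaving out WT replicate 1 gave 0.03, leaving out KO1 replicate 2 gave 0.08 and leaving out WT replicate 3 gave 0.22. Its sign was negative with weighted libraries, without WT replicate 1 and KO1 replicate 2 together, and at -0.09 under quantile normalization, a scaling that moved the median difference of all tested genes to -0.09, against 0.05 as deposited. Within groups bri1 was steadier than most genes of its level: among the 2589 tested genes with a mean within 1.5 times its own, 8.69% had a smaller SD in KO1 and 29.2% a smaller one in WT.

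**Figure D1:**
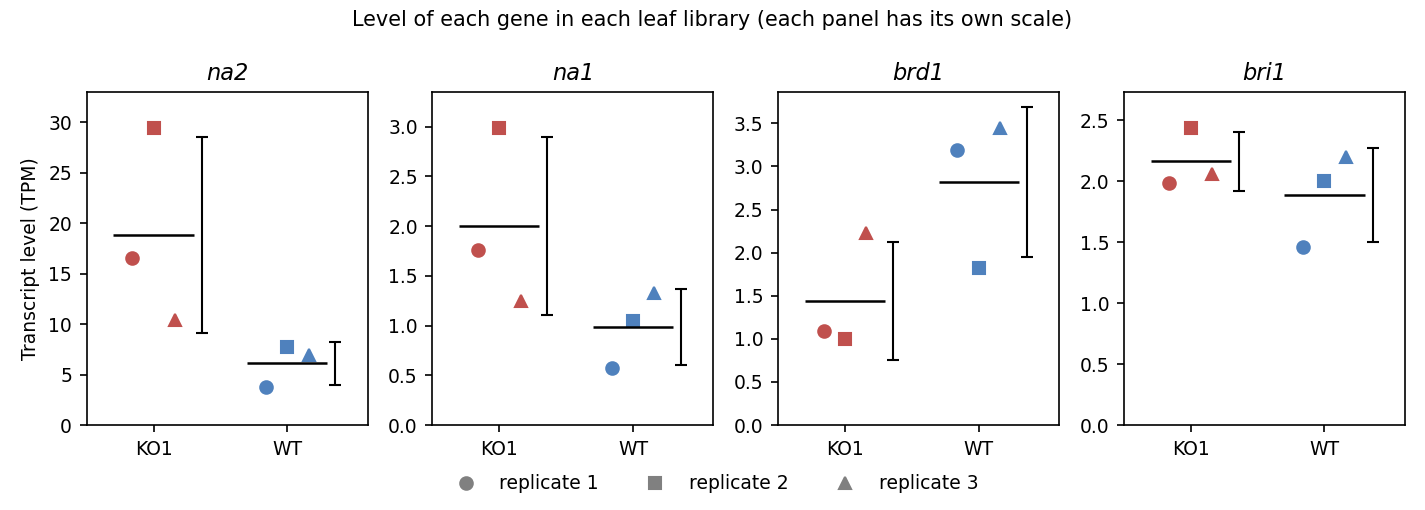
Transcript level in TPM (vertical axis, a separate scale in each panel) of na2, na1, brd1 and bri1 in the KO1 and WT libraries. Each point is a library with its replicate number as the shape, horizontal lines are group means and bars are ± 1 SD (n = 3). For na2 the KO1 points, from 10.4 to 29.5 TPM, all lie above the WT points, while the groups overlap for na1, brd1 and bri1.

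**Figure D2:**
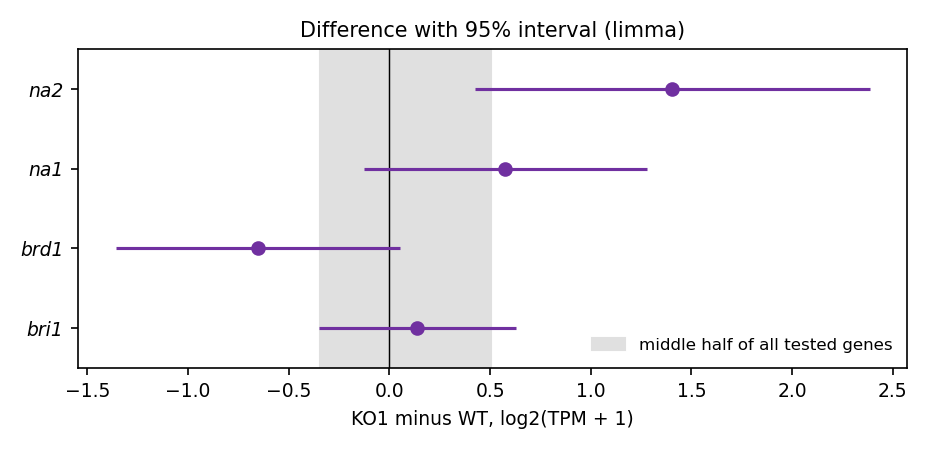
Difference between KO1 and WT on the log2(TPM + 1) scale (horizontal axis) for each gene, with its limma 95% interval as a line. The grey band spans the quartiles of the difference over all tested genes, from -0.35 to 0.50. The interval of na2 lies above 0 and those of na1, brd1 and bri1 include it.

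Set against each other, the 4 transcripts kept na2 in the first place. In KO1 the order of mean levels was na2, bri1, na1 and brd1, at 18.8, 2.16, 2 and 1.44 TPM, and the ranges of the last 3 overlapped each other. In WT the order was na2, brd1, bri1 and na1, at 6.14, 2.82, 1.89 and 0.983 TPM. There the ranges of brd1 and bri1 overlapped, while every WT value of bri1 lay above every WT value of na1.

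Within each library, the level can also be placed among all genes listed above 0 TPM. The transcript of na2 stood at the 57.1 to 79.6 percentile in KO1 libraries and at the 40.8 to 50.4 percentile in WT libraries. That of na1 stood at the 24.7 to 34.9 percentile in KO1 and the 18.5 to 26.0 percentile in WT. That of brd1 stood at the 21.7 to 31.7 percentile in KO1 and the 28.4 to 38.6 percentile in WT. The receptor transcript stayed within a narrow band, the 29.5 to 32.1 percentile in KO1 and the 28.4 to 32.2 percentile in WT. Of the 4 genes only na2 reached a level above the middle of the expressed genes in any library.

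The makeup of the synthesis transcripts differed between the groups mainly in na2 and brd1. Of the summed TPM of na2, na1 and brd1, na2 made up 85.3%, 88.1% and 74.9% in KO1 replicates 1 to 3 and 49.8%, 73.0% and 59.1% in WT replicates 1 to 3. The share of brd1 was 5.61%, 2.99% and 16.1% in KO1 and 42.6%, 17.1% and 29.5% in WT. The share of na1 stayed near the same value, at 9.01% ± 0.0615 in KO1 and 9.62% ± 1.89 in WT (SD, n = 3 each), so the shares of na2 and brd1 mirror each other and are 1 observation. In it the groups did not overlap, with KO1 replicate 3 and WT replicate 2 close to each other, and groups of single genes did not overlap for 40.5% of all tested genes. These shares are descriptions of the values above, with no test.

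**Figure D3:**
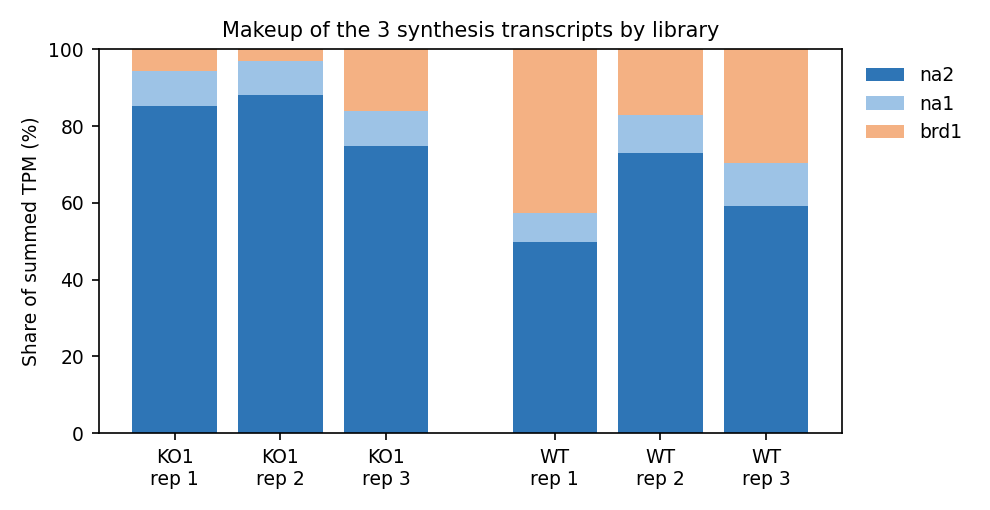
Share of the summed TPM of na2, na1 and brd1 in percent (vertical axis) in each of the 6 libraries, with KO1 on the left and WT on the right. Each bar is a library without an error of its own. The brd1 part runs from 2.99% to 16.1% in KO1 and from 17.1% to 42.6% in WT.

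Ratios between transcripts of the same library, which do not depend on its scaling, are given with no test. The ratio of brd1 to na2 was 0.0658, 0.034 and 0.215 in KO1 replicates 1 to 3 and 0.855, 0.235 and 0.499 in WT replicates 1 to 3. The ratio of na1 to na2 was 0.109 ± 0.00984 in KO1 and 0.160 ± 0.0291 in WT (SD, n = 3 each). The receptor transcript bri1, set against the summed synthesis transcripts, had a ratio of 0.102, 0.073 and 0.149 in KO1 and of 0.195, 0.188 and 0.188 in WT. The sum itself was 22.2 ± 10.1 TPM in KO1 and 9.94 ± 2.19 TPM in WT (SD, n = 3 each). The means of na2 alone lay further apart than these sums, since brd1 lay the other way. Each ratio in this paragraph has na2 as its denominator or as the largest part of it. The ratios therefore partly restate the na2 difference and are not separate observations. The mean level of bri1 itself was 1.15 times the WT level in KO1.

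Within each group, na2 and na1 were at their lowest in the same library. In KO1 both were highest in replicate 2 and lowest in replicate 3, and in WT both were lowest in replicate 1. In KO1 brd1 had the opposite order, highest in replicate 3 and lowest in replicate 2. The distance between profiles over the 6 libraries, as the root mean square difference of log2(TPM + 1) values centred on each gene's own mean, was 0.47 between na2 and na1 and 1.27 between na2 and brd1. Of all tested genes, 5.95% lay nearer to na2 than na1 did, and 86.6% lay nearer than brd1 did. The closest pair was na1 and bri1, at 0.29, with 9.41% of tested genes nearer to na1 than bri1. Both are scarce, and the added 1 shrinks the distance between scarce transcripts. In TPM their ratios of KO1 to WT means were 2.03 for na1 and 1.15 for bri1. Other distances were 0.53 for brd1 and bri1, 0.75 for na2 and bri1, and 0.81 for na1 and brd1. These distances are a description over 6 libraries that share their genotype in groups of 3.

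The same libraries stood at the ends of the range for other measures. WT replicate 1 had the fewest genes at 1 TPM or more of the 6 libraries, 19282, and the lowest na2, na1 and bri1. KO1 replicate 2 had the most, 21115, and the highest na2, na1 and bri1. The other gene, brd1, went the other way, with its lowest value, 1 TPM, in KO1 replicate 2 and 3.19 TPM in WT replicate 1. The part of this in the result was not tested beyond leaving both libraries out, an alternative chosen after seeing the data. Without both, the difference of na2 was 0.76 with a 95% interval from 0.04 to 1.49 (limma adjusted p = 0.177), that of na1 was 0.19 (limma adjusted p = 0.681), and that of brd1 was -0.45 (limma adjusted p = 0.493).

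**Figure D4:**
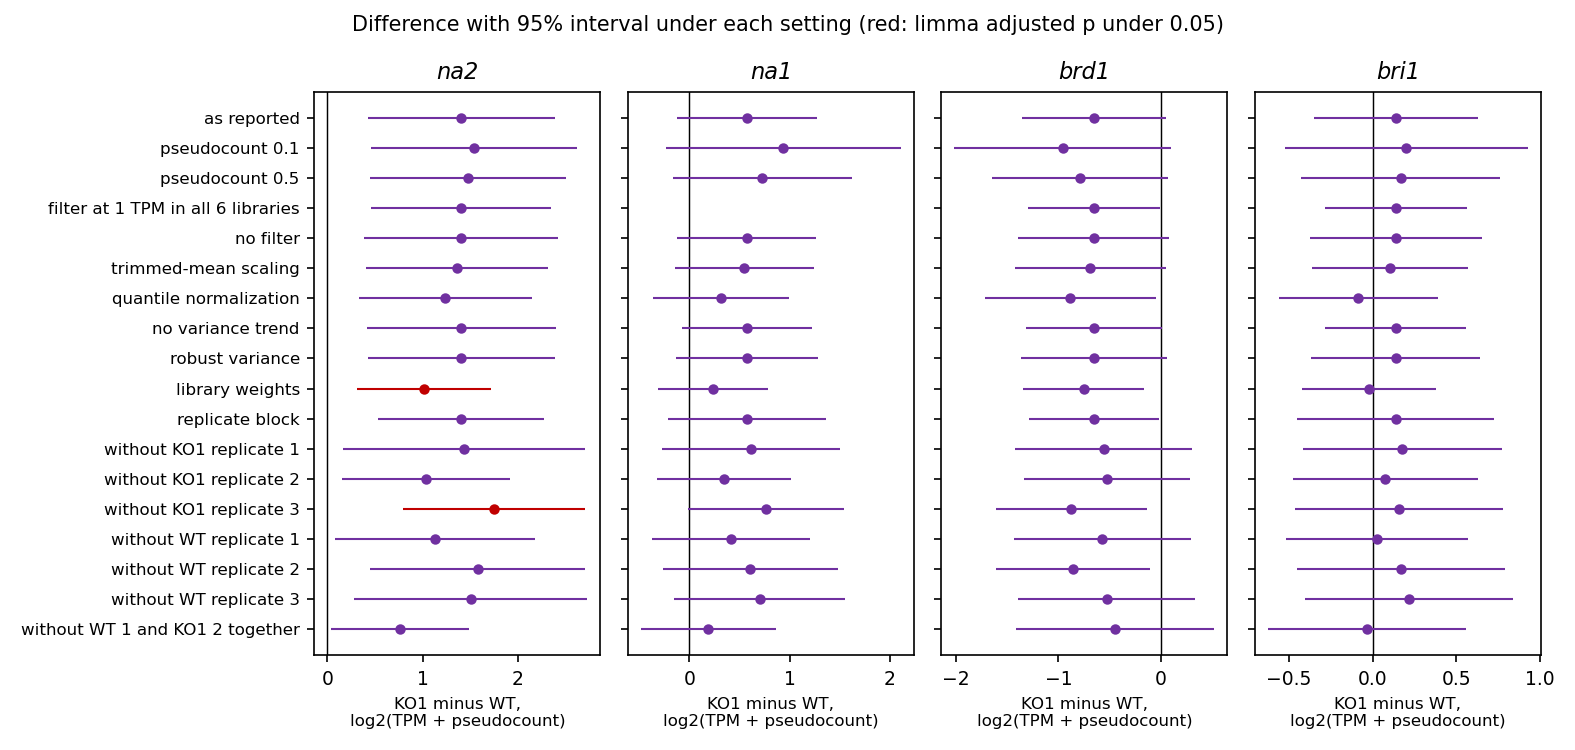
Difference between KO1 and WT (horizontal axis, log2 of TPM plus the pseudocount, a separate scale in each panel) under each setting, with limma 95% intervals as lines and red where the adjusted p was under 0.05. The red points are na2 with library weights, at 1.02, and without KO1 replicate 3, at 1.75. With a filter at 1 TPM in all 6 libraries na1 was not tested and has no point.

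Genes whose profiles lay nearest to each of the 4 were found by that distance among tested genes with a mean of at least 5 TPM. Their identifiers are not paired with names in the sources used here. Nearest to na2 was Zm00001d017830 at a distance of 0.11, with 11.8, 22.6 and 8.73 TPM in KO1 and 3.29, 5.63 and 5.62 TPM in WT. It was followed by Zm00001d012103 and Zm00001d023309, both at 0.16, with means of 88.2 and 28.7 TPM over the 6 libraries. Like na2, all 3 were highest in KO1 replicate 2 and lowest in WT replicate 1, a likeness that follows from how they were chosen.

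Nearest to na1 were Zm00001d050384, Zm00001d033231 and Zm00001d005271, at distances of 0.09, 0.10 and 0.10. Zm00001d050384 had 41.1, 62.4 and 33.2 TPM in KO1 and 21.1, 32.1 and 31.0 TPM in WT. Nearest to brd1 were Zm00001d031951, Zm00001d035737 and Zm00001d028471, at 0.09, 0.09 and 0.11. Zm00001d031951 had 44.6, 48.3 and 72.0 TPM in KO1 and 106, 71.7 and 104 TPM in WT, while Zm00001d028471 was far more abundant, with a mean of 1740 TPM. Nearest to bri1 were Zm00001d038318, Zm00001d022462 and Zm00001d006011, at 0.03, 0.04 and 0.04. Zm00001d038318 lay between 27.2 and 32.6 TPM in KO1 and between 22.4 and 28.6 TPM in WT. The added 1 shrinks the spread of a transcript as scarce as bri1, so a near profile on this scale is not an equal spread in TPM.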

How the data were processed

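RNA from 6 leaf libraries (3 KO1, 3 WT) was sequenced, with groups and replicates as the titles give them. The values deposited by the authors are TPM with 2 decimals, scaled per length and to a fixed library total. The submitters' processing notes list RSEM, Bowtie2 and DESeq2, with no version or role given. The build, the annotation and any filter on reads were not given in the sources used here. RSEM shares reads between similar genes, so values of near-identical copies would be uncertain. No other row of the table holds the same 6 values as any of the 4 genes. That does not show whether reads were shared, since similar genes can be given different values.

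The comparison of KO1 with WT used limma 3.58.1 under R 4.3.3, with log2(TPM + 1) values of the 20990 genes with at least 1 TPM in at least 3 libraries. It had a variance trend, no covariates and Benjamini-Hochberg adjustment over all of them. The procedure was tested on simulated data, where a gene's noise was independent and of equal size in all libraries. The real libraries had weights from 0.377 (KO1 replicate 2) to 8.53 (WT replicate 3). The simulation therefore does not check calls under such unequal spread. An exact two-sided permutation test over the libraries was added for each of the 4 genes. Named genes were the 4 genes and, for each, the 3 tested genes with a mean of at least 5 TPM and the nearest centred profile. Alternatives changed the pseudocount, the filter, the scaling, the variance model and the libraries included, or added a replicate block or library weights. The genes and lists were chosen with earlier results of these data known.

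Of the 44320 identifiers, 0 matched the 49888 genes of the RefSeq table (Zm-B73-REFERENCE-NAM-5.0). Other brassinosteroid genes and cell type markers were therefore not analysed here, and neither were promoter motifs or sequences. Plots were drawn with matplotlib 3.10.9.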

Additional observations from a re-analysis of the deposited data

How the results depend on the processing

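Over the alternatives run, the difference of na2 kept its positive sign in 17 of 17 (0.76 to 1.75), that of na1 in 16 of 16 (0.19 to 0.94) and that of brd1 its negative sign in 17 of 17 (-0.96 to -0.45). The values 0.94 and -0.96 came with a pseudocount of 0.1, which is another scale than log2(TPM + 1). With an added 1, the furthest values from 0 were 0.76 for na1 (without KO1 replicate 3) and -0.88 for brd1 (quantile normalization). The difference of bri1 turned to -0.087 under quantile normalization, -0.0197 with library weights and -0.035 without WT replicate 1 and KO1 replicate 2 together. The count of the 4 genes past the limma threshold was 0 as reported and 1, na2, with library weights, at a difference of 1.02 (adjusted p = 0.0393); its adjusted p ran from 0.0393 to 0.177 over the alternatives. When any 1 library was left out, the range was 0 to 1 of the 4 genes, with differences of 1.04 to 1.75 for na2, and 778 to 2929 genes called over the whole table, where 3301 were called as reported. The call of na2 was made without KO1 replicate 3, a fit with 2246 genes called over the whole table. With library weights, which stood at 8.53 for WT replicate 3 and at most 1.07 for the others, 6838 genes were called in all, and 1016 without WT replicate 1 and KO1 replicate 2 together. The split of calls was 2071 higher and 1230 lower as deposited and 1656 higher and 1738 lower under quantile normalization. The mean na1 to na2 ratio in KO1 minus that in WT was -0.0507 and moved to -0.125 when 1 TPM was added to both levels. The causes of these changes were not tested.

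The replicate block changed no call of the 4 genes (na2 adjusted p = 0.0591 in limma) and gave 2806 genes over the whole table. The numbers were not taken to pair the libraries: over genes, same-numbered libraries had correlations of -0.01, 0.09 and 0.02 between their deviations from the group means. The depth is unknown, so counting error in na1, brd1 and bri1, all near 1 to 3 TPM, cannot be given, and a p that missed the threshold does not show equal levels.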
